A study of Mus musculus with 2 samples.

Results

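Some BRD2 loops in mouse embryonic stem cells are isolated contacts between a pair of places, and others hang together in large networks. The loops of the large networks are described here. The list holds 7732 loops, and the 162 loops longer than 5 Mb were set aside first. In the remaining 7570 loops, ends at the same place (equal positions, or a right end less than 5000 bp past a left end) were treated as a single anchor, and anchors linked directly or through other anchors were joined into connected groups. Groups of 10 or more anchors were kept. Membership was thus selected on the listed loop positions alone, and group size, partners and circuits follow in part from that choice. They are given as descriptions, with no test. The large groups numbered 125 of 2686 groups and held 1648 of 9269 anchors, or 17.8%, and 2030 loops, or 26.8% of the loops of up to 5 Mb and 26.3% of the whole list.

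The loops come from ChIA-PET with an antibody against BRD2, an assay that enriches chromatin holding the protein, ligates DNA ends lying close together and sequences the joined pairs. The material was 1 group of 2 samples of the embryonic stem cell line V6.5, wild type and untreated, grown with irradiated embryonic fibroblasts in serum and LIF. Both samples, labelled replicates 1 and 2, entered 1 merged list. No value below therefore has a replicate error, there is no condition to compare, and no p-value is given. Each loop carries a position and a score, the authors' own value, which is a whole multiple of 1000 and at least 2000. What a unit of score stands for is not stated, and the sequencing depth is unknown. The left and right positions of a loop were read as its outer edges, an inference on which every group, length and partner below rests.

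BRD2 belongs to the BET family of proteins, which recognise acetylated lysines on histone tails through paired bromodomains and help to recruit the transcription machinery to active promoters and enhancers. In chromatin contact maps, promoters and enhancers that contact each other often form networks in which an anchor has several partners. A chain, a star around a shared anchor and a clique in which every anchor contacts every other are the simplest shapes. Genes were not placed at the anchors, because positions are on mm9 whereas the gene table at hand is built on GRCm38.p6. The genes and sequences of the anchors are not analysed here.

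Most large groups stayed near the lower size limit, and most of their loops were short beside the span of the group. They had a median of 12 anchors (quartiles 11 and 15, highest 33) and 14 loops (quartiles 12 and 19, highest 43). The median span from the first to the last edge was 367 kb, and 87 of the 125 groups spanned at most 500 kb. Neighbouring anchors of a group lay a median of 16.8 kb apart, taking the median over groups of each group's own median spacing. The widest interval between neighbours was far longer, with a median of 133 kb. The loops themselves had a median length of 33.8 kb (quartiles 14.5 and 82.8 kb), against 28.3 kb in groups of 3 to 9 anchors and 19.4 kb in isolated pairs. Just inside the threshold, the 25 groups of exactly 10 anchors had a median of 10 loops and a median span of 314 kb. Just outside it, the 31 groups of 9 anchors had a median of 9 loops and 284 kb.

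Few loops lay beyond those needed to hold a group together. A group of connected anchors needs 1 loop fewer than it has anchors, and each further loop adds a closed circuit. The 125 groups had a median of 3 such circuits (quartiles 2 and 5). In 9 groups there was none. The median group held 20.5% of the loops that its anchors could have formed, with a range from 8.14% to 56.4%. Getting from the most separated anchors of a group to each other took a median of 5 loops, and 12 in the longest case.

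**Figure D1:**
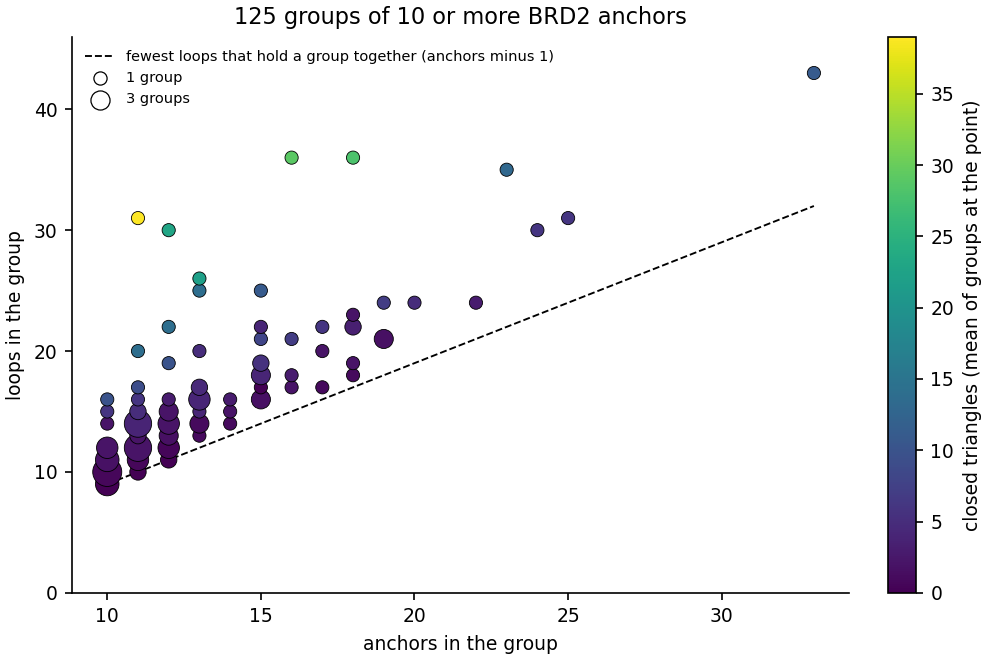
Number of loops (vertical axis) against number of anchors (horizontal axis) in the 125 groups of 10 or more anchors; point size gives the number of groups at a position, colour their closed triangles, and the dashed line the fewest loops that can connect the anchors. Most groups lie close above the dashed line, while groups of 11 to 18 anchors with 26 to 36 loops stand well above it.

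The most anchors were found on chromosome 15, where 33 anchors between 99251015 and 102501664 were connected by 43 loops. Its longest loop, of 2.94 Mb, joined 5 anchors to the other 28. The group on chromosome 17 from 83677087 to 84587929 followed with 25 anchors and 31 loops, none of them over 289 kb, and crossing it took up to 10 loops. On chromosome 12, the group from 111655382 to 114426106 had 24 anchors and crossing it took 12 loops, the most of any large group.

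Chromosome 7 held the next pair. The first of these, from 148089288 to 152095225, had 23 anchors, 35 loops and 13 closed triangles. The other, from 17340560 to 20514143, had 22 anchors but only 24 loops and 3 closed triangles. On chromosome 6, 20 anchors between 122290610 and 122776867 made up a group that is described loop by loop below.

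The remaining groups of the first 10 each had 19 anchors. On chromosome 10, the groups from 121484893 to 126817925 and from 127813917 to 128259350 had 21 loops and 1 closed triangle each. On chromosome 11, the group from 18918920 to 20642335 had 21 loops and 3 closed triangles. On chromosome 17, the group from 29032259 to 29650444 had 24 loops, 7 closed triangles and a summed score of 113000. None of these 10 groups was among the 5 with the most loops per anchor.

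Those 5 dense groups were of moderate size. On chromosome 17, the 11 anchors from 37057219 to 37334120 were joined by 31 loops, which is 56.4% of all possible ones and 2.82 loops per anchor. On chromosome 12, the 12 anchors from 88108842 to 88288820 were joined by 30 loops. The groups on chromosome 17 from 71056403 to 71351696 and on chromosome 1 from 87956086 to 89072553 had 36 loops each, among 16 and 18 anchors. On chromosome 5, the 13 anchors from 118728156 to 119010318 were joined by 26 loops. These same 5 groups also had the most closed triangles, that is, sets of 3 anchors with all 3 loops listed. They held 141 of the 515 closed triangles of all large groups, or 27.4%.

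The chromosome 12 group from 88108842 to 88288820 was dense, although none of its loops had a score above 7000. It was 1 of only 2 large groups in which no loop was indispensable, so that any of its 30 loops could be lost without splitting it. Its strongest loop connected 88225841 with 88244968 at a score of 7000 and carried 6.48% of the summed score of 108000, the lowest such share of any large group. Scores of 6000 were held by the loops from 88142146 to 88177934, from 88142146 to 88208869, from 88164849 to 88177934 and from 88164849 to 88244968. Its loops reached far: the one from 88136854 to 88288820 passed over 9 anchors of the group and still had a score of 4000. The anchors starting at 88136854, 88164849 and 88244867 had 7 partners each. With loops of score 2000 removed, 11 of the 12 anchors stayed in a single network.

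The other group without an indispensable loop lay on chromosome 4 from 132501455 to 132686912, with 13 anchors, 25 loops and 14 closed triangles. Loops of score 9000 ran from 132596418 to 132611758 and from 132651446 to 132659871. The anchor at the right end of the latter had 8 partners, the most in this group. The left part of the group, with loops of 7000 from 132501455 to 132517532 and of 6000 from 132501455 to 132559736, was tied to the rest by 3 loops. These connected 132517330 with 132566792, 132530052 with 132678478 and 132540006 with 132659871, each at the lowest score of 2000. Without loops of score 2000 the group came apart into 2 networks, the larger of 8 anchors, and 1 anchor lost all its loops.

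The chromosome 17 group from 37057219 to 37334120 was both dense and strong. Its summed score was 204000, second to the 248000 of the chromosome 1 group, and 74.2% of its loops had a score of 3000 or more. Its strongest loop, between 37107539 and 37139725, had a score of 23000, the one from 37139336 to 37166045 had 17000, and those from 37119321 to 37126001 and from 37165508 to 37187525 had 16000 each. The outermost anchor on the right was well connected. The anchor ending at 37334120 lay 118 kb from the nearest other anchor and yet had 7 partners, with scores of 2000 or 3000. Without loops of score 2000, 10 of the 11 anchors stayed in a single network.

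The group on chromosome 6 from 122290610 to 122776867 was nearer to the usual shape. Its 20 anchors and 24 loops made 5 closed triangles, and 11 of the loops were indispensable. Its centre was the anchor at the right end of the loop from 122290610 to 122552550, which had 7 partners. From there a loop of score 7000 ran on to 122653252, 101 kb away. The strongest loop, from 122692439 to 122711313 with a score of 12000, led to an anchor that had no other partner. The left part, with loops of 7000 and 6000 from 122290610 to 122316552 and to 122341525, reached the centre through only 1 loop, of score 2000 and 262 kb long. Without loops of score 2000 the group came apart into 4 networks, the largest of 8 anchors, and 4 anchors lost all their loops.

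The 9 groups without any circuit had 10 to 12 anchors. On chromosome 11, the 12 anchors from 22412095 to 22891262 were joined by 11 loops, 9 of which had a score of 2000. Only the loops from 22507804 to 22521422, with a score of 4000, and from 22520875 to 22529979, with 7000, were stronger. Loops of 321 and 326 kb, both of score 2000, spanned most of this group and passed over 3 and 4 of its anchors. Every one of the 11 loops was indispensable.

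**Figure D2:**
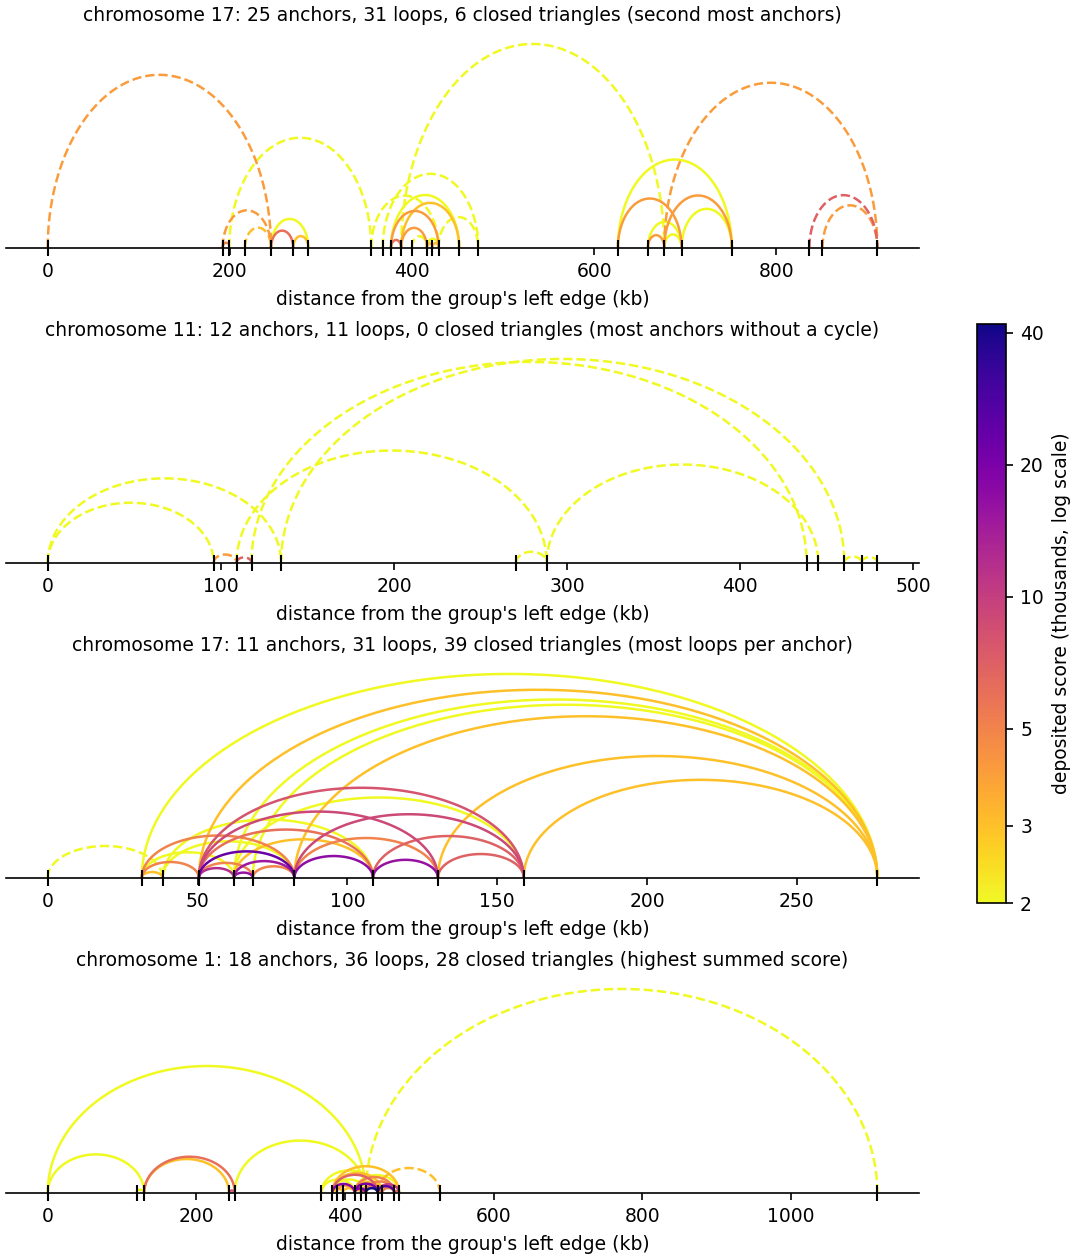
Loops of 4 large groups drawn as arcs between anchors (ticks) along the distance from the group's left edge in kb, with arc height proportional to loop length and colour giving the deposited score in units of 1000 on a log scale; each panel has its own height scale, and dashed arcs are loops whose loss splits the group. From top to bottom are a drawn-out group of 25 anchors, a group of 12 anchors with no circuit, the group of 11 anchors with 31 loops, and the group of 18 anchors with the highest summed score, 248000.

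By span, the narrowest groups were compact clusters. On chromosome 8, the 10 anchors from 73215440 to 73316482 lay within 101 kb, with a median spacing of 7.93 kb. All 10 loops of this cluster had scores of 2000 to 4000, and it had no closed triangle. On chromosome 2, the 11 anchors from 152522453 to 152656722 lay within 134 kb and had 17 loops with 9 closed triangles. On chromosome 11, the 12 anchors from 69393633 to 69532500 lay within 139 kb and had 13 loops with 1 closed triangle. In both of the latter a loop ran from the first edge to the last.

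By contrast, wide spans usually rested on 1 weak loop. Of the 14 large groups that spanned more than 1 Mb, 11 contained a loop longer than 1 Mb, and 10 of these 11 contained only 1. Those 12 loops in all were each indispensable to their group, and 10 of them had the lowest score of 2000. The longest ran from 121484893 to 126367963 on chromosome 10, a length of 4.88 Mb, and added only its own left anchor, since 18 of the 19 anchors stayed together without it. The next, from 31419120 to 35978478 on chromosome 17, was 4.56 Mb long and joined parts of 10 and 5 anchors.

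On chromosome 7, the loop from 148303675 to 152095225 was 3.79 Mb long, had a score of 3000 and added 1 anchor to a network of 22. The loop from 117895806 to 121098145 on chromosome 11 was 3.2023 Mb long and likewise added 1 anchor, to a network of 10. Without loops over 1 Mb, 3 of the 14 wide groups had no part of 10 or more anchors, and 122 large groups remained in the whole list. The group on chromosome 17 from 31383909 to 36128910 also ran past 68 anchors of other groups, the most of any large group. Its span contained that of 2 other large groups.

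Within groups, neighbours in position were often not joined. Of the 1523 intervals between neighbouring anchors of a large group, 879, or 57.7%, had a loop that joined the 2 neighbours, and no large group had such a loop in every interval. More loops passed over an anchor of their own group (1151 of 2030, or 56.7%) than in groups of 3 to 9 anchors (1638 of 4057, or 40.4%). A larger group offers more anchors to pass over, so this difference follows in part from how the groups were chosen. Loops that passed over 5 or more anchors of their own group numbered 229, or 11.3%. Only 22 loops passed over anchors of other groups alone.

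Large groups rarely overlapped each other along the chromosome, with 5 of 125 doing so. Anchors of other groups lay inside many spans, and in 61 of the 125 there was none. The distance from a large group to the nearest other one had a median of 1928 kb. Pairs of loops of the same group that shared no anchor lay side by side in 9686 of 12922 cases, or 75%. In 2161 pairs, or 16.7%, the shorter loop lay within the longer. In 1075 pairs, or 8.32%, the loops interleaved, with 1 end of each inside the other. At least 1 interleaved pair was found in all but 6 of the 125 groups.

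Partners were spread unevenly over the anchors. Of the 1648 anchors in large groups, 546, or 33.1%, had only 1 partner, 468 had 2 and 282 had 3, while 352, or 21.4%, had 4 or more. The best connected anchor of a group had a median of 5 partners (range 3 to 10) and was joined directly to a median of 44.4% of the other anchors. It lay at either end of its group in only 11 of 125 cases. Removing it left a median of 3 separate pieces, yet in 88 groups the largest piece still held at least 50% of the group's anchors, and in 17 groups everything else stayed together.

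The extremes of this range were stars and meshes. Counted by partners, 10 anchors headed the list, with 9 or 10 each. On chromosome 17, the anchor from 31945047 to 31945477 had 9 partners in a group of 11 anchors, and only 2 loops ran among these partners. Without it the group came apart into 7 pieces. On chromosome 1, the anchor from 37042667 to 37042768 also had 9 partners, 5 at lower and 4 at higher positions, in a group of 11 anchors from 36841647 to 37187165. Its partners had 3 loops among themselves, and 5 pieces remained without it. On chromosome 15, the anchor from 102073660 to 102073882 had 10 partners with 5 loops among them.

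The anchor from 37139336 to 37139725 on chromosome 17 stood at the other end, with 21 loops among its 9 partners, and the group stayed in 1 piece without it. Also in 1 piece without their best connected anchors were the groups of the anchors from 88368524 to 88369778 on chromosome 1 (10 partners, 17 loops among them) and from 71183761 to 71183880 on chromosome 17 (10 partners, 15 loops among them). The anchors on chromosome 1 from 88383662 to 88384782 and from 88399839 to 88400259 had 9 partners with 11 and 15 loops among them. On chromosome 5, the anchor from 118885698 to 118885913 had 9 partners with 12 loops among them. The last of the 10, ending at 65253379 on chromosome 5, had 7 loops among its 9 partners, all at lower positions.

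In large groups, anchors with many partners were somewhat narrower by median than those with 2. Width is known only for anchors with partners on both sides, since otherwise only 1 edge is listed. It had a median of 330 bp over 711 such anchors in large groups (quartiles 197 and 589 bp) and 360 bp over 1323 in groups of 3 to 9 anchors (quartiles 218 and 609 bp). Within large groups the median was 356 bp for anchors with 2 partners and 281 bp for the 72 anchors with 6 or more, and the quartile ranges overlapped widely.

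Scores were not used to choose the loops, although a loop enters the list only above an unknown threshold. In large groups 955 loops had a score of 3000 or more, or 47.0% (exact 95% interval 44.9 to 49.2%). The share was 43.7% in groups of 3 to 9 anchors (42.1 to 45.2%) and 35.5% in isolated pairs (33 to 38.0%). Such intervals cover counting error only, and loops of a group share anchors, so they are too narrow as a measure of biological spread. The mean score was 3413 ± 2905 (SD over 2030 loops) in large groups, 3101 ± 2135 over 4057 loops of the middle groups and 2677 ± 1385 over 1483 isolated pairs. The median was 2000 in all of them. Stronger loops were found in large groups more often: they held 26.8% of all loops of up to 5 Mb, 35.4% of the 1004 with a score of 5000 or more (32.4 to 38.4%) and 41.2% of the 153 with a score of 10000 or more (33.3 to 49.4%).

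The difference from isolated pairs was also seen between loops of like length, up to 100 kb. Of the 5 to 10 kb loops in large groups, 65.3% reached a score of 3000 (59.6 to 70.7%), against 46.6% of isolated pairs of that length (41.4 to 51.7%). Among loops of 20 to 50 kb the shares were 49.6% (45.4 to 53.9%) and 30.5% (25.8 to 35.6%), and among those of 50 to 100 kb 37.5% (32.6 to 42.6%) and 24.7% (18.6 to 31.7%). Between large groups and groups of 3 to 9 anchors the intervals overlapped in every length class except 20 to 50 kb, where the middle groups lay at 41.6% (38.7 to 44.6%). At 100 to 500 kb the intervals of large groups and isolated pairs overlapped, at 30.7% (26.2 to 35.6%) and 21.1% (15.2 to 27.9%). Above 500 kb the order turned, with 8.33% of 24 loops in large groups (1.03 to 27.0%) and 12.5% of 24 isolated pairs (2.66 to 32.4%), and these wide intervals overlapped.

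**Figure D3:**
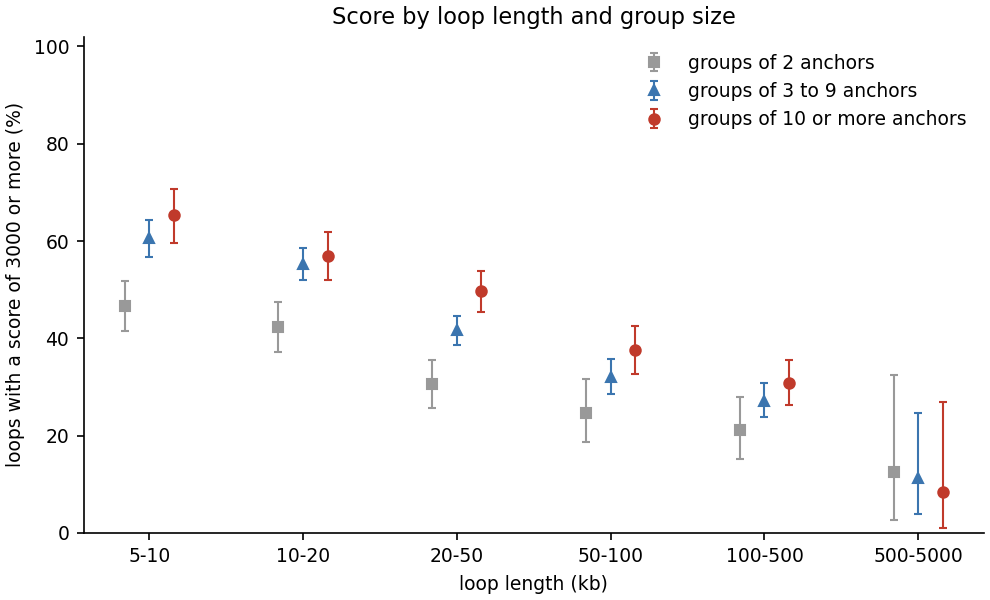
Percentage of loops with a score of 3000 or more (vertical axis) by loop length in kb (horizontal axis), for isolated pairs (squares), groups of 3 to 9 anchors (triangles) and groups of 10 or more anchors (circles), with exact 95% intervals. In each length class up to 500 kb the circles lie above the squares, from 65.3% against 46.6% at 5 to 10 kb to 30.7% against 21.1% at 100 to 500 kb.

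The last place among the 10 strongest loops was shared by 4 loops with a score of 19000, so that 13 loops had a score of 19000 or more. Of these 13, 11 took part in a closed triangle, while 1093 of all 2030 loops of large groups took part in none. Several of the 11 lay in the same chromosome 1 group and are not separate cases. The strongest loop of a large group held a median of 17.1% of the group's summed score, and 25% or more in 11 groups. In the group on chromosome 15 from 76804253 to 77736079 the loop from 77169056 to 77187248, with a score of 52000, held 42.3% of the summed score. This same loop took part in 2 closed triangles, but only 28.6% of the 21 loops in its group had a score of 3000 or more. Next came a score of 42000, held by the chromosome 1 loop between 88383662 and 88400259, which took part in 5 closed triangles. A chromosome 4 loop between 133312455 and 133377250 scored 30000, lay in 1 closed triangle and held 30.3% of its group's summed score.

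The chromosome 5 loop between 118885698 and 118896164 scored 27000 and took part in 4 closed triangles. The loop of 23000 on chromosome 17 described above took part in 7. Scores of 26000, 20000 and 19000 belonged to 3 more loops of the chromosome 1 group, with 4, 7 and 5 closed triangles. A chromosome 2 loop between 165795092 and 165813007 scored 21000, took part in 2 closed triangles and held 36.8% of the summed score of its group of 10 anchors. The 2 exceptions were in no closed triangle and indispensable. The first, on chromosome 8 between 87500488 and 87514967, had a score of 22000 and a left anchor without another partner. The other was a chromosome 7 loop between 20401699 and 20409821, with a score of 19000. The remaining loops of 19000 lay on chromosome 17, between 29587863 and 29601273 with 3 closed triangles and between 31945047 and 31956280 with 2.

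Loops whose loss splits a group had a score of 3000 or more less often than the others. Of the 2030 loops, 870, or 42.9%, were indispensable, meaning that the loss of any 1 of them splits its group. Of these, 546 led to an anchor with no other partner and 324 joined parts of at least 2 anchors each. A score of at least 3000 was found in 36.6% of the indispensable loops (33.3 to 39.9%) and in 54.9% of the other 1160 (52.0 to 57.8%). Loops between parts were also long, with a median of 77.9 kb against 31.2 kb for loops that were not indispensable. At like lengths of 20 to 50 kb, 37.9% of indispensable loops reached a score of 3000 (31.1 to 45.2%), against 56.1% of the others (50.8 to 61.4%). At 10 to 20 kb the shares were 44.2% (36.3 to 52.4%) against 65.2% (58.8 to 71.1%). Between 5 and 10 kb, 59.4% (50.7 to 67.7%) and 70.4% (62.7 to 77.4%) had overlapping intervals. For the 324 loops between parts alone, the share was 33.3% over all lengths (28.2 to 38.8%). In each length class up to 500 kb it lay below that of loops that were not indispensable, but with overlapping intervals. It was 40.3% of 67 (28.5 to 53.0%) at 20 to 50 kb, 52.8% of 36 (35.5 to 69.6%) at 10 to 20 kb and 68.2% of 22 (45.1 to 86.1%) at 5 to 10 kb.

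Scores were higher in loops that took part in more closed triangles. A score of at least 3000 was found in 35.5% of the 1093 loops in no closed triangle (32.7 to 38.4%), 57.5% of the 789 loops in 1 or 2 (54.0 to 61.0%) and 76.4% of the 148 loops in 3 or more (68.7 to 82.9%). The mean score was 2814 ± 1742, 3757 ± 3119 and 6000 ± 5636 (SD over loops) in the same order. Among loops of 100 to 500 kb the shares were 23.8%, 40.6% and 66.7%, the last over only 21 loops. Lengths still differed within this class, with medians of 176, 141 and 147 kb in the same order. The 5 groups with the most closed triangles held many of the loops in 3 or more. Without these 5 groups the shares were 35.6%, 57.9% and 77.0% (64.5 to 86.8%), with 61 loops left in 3 or more closed triangles and a mean score of 4836 among them. Groups of 3 to 9 anchors gave 39.1%, 54.4% and 81.5%, and thus showed the same order.

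**Figure D4:**
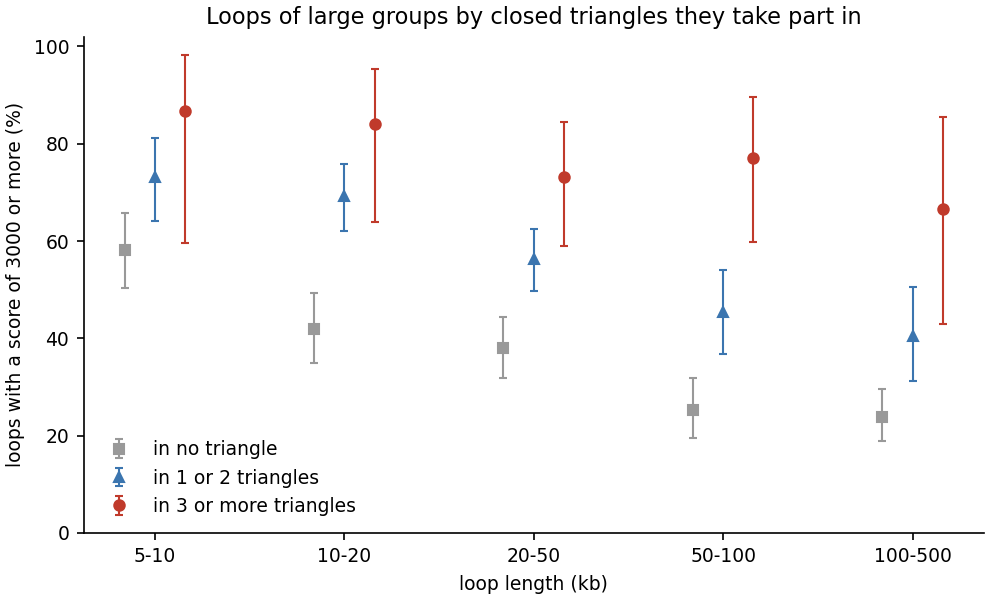
Percentage of loops of large groups with a score of 3000 or more (vertical axis) by loop length in kb (horizontal axis), for loops in no closed triangle (squares), in 1 or 2 (triangles) and in 3 or more (circles), with exact 95% intervals. The order is the same in the 5 length classes shown, although neighbouring intervals overlap in places. The shares go from 58.2%, 73.2% and 86.7% at 5 to 10 kb to 23.8%, 40.6% and 66.7% at 100 to 500 kb. In that last class the median lengths are 176, 141 and 147 kb in the same order.

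Closed triangles were a minority of what could have been closed. Large groups had 3961 sets of 3 anchors joined by at least 2 loops, and 515, or 13%, were closed (interval 12 to 14.1%). In groups of 3 to 9 anchors the share was 11.7% (10.7 to 12.7%). Without the 5 groups with the most closed triangles it was 10.8% in large groups, with no groups left out of the smaller ones. The share did not rise steadily with size. It was 6.82% in groups of 3 anchors, 14.7% in groups of 9, 13.4% at 10 to 12, 14.5% at 13 to 16 and 10.5% at 17 to 33. In 16 large groups no set was closed, in 52 there were 1 or 2 closed triangles, and in 13 there were 10 or more. Fully joined sets of 4 anchors were the largest in 20 groups and sets of 5 in 5 groups. The sets of 5 lay in 3 of the dense groups, on chromosomes 1, 5 and 17, and in the groups on chromosome 11 from 77551957 to 77761641 and from 117740371 to 121098145.

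Within closed triangles, the outer loop, which spans the other 2, was the strongest of the 3 in 76 of 515 cases, or 14.8%, and the weakest in 128, or 24.9%. In the remaining triangles the outer loop lay between the inner 2 or tied with 1 or both of them. Mean scores were 3913 for outer loops and 5341 for inner loops. The outer loop is the longest by construction, so this contrast also sets long loops against short ones.

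Among anchors with 1 or more shared partners, whether 2 anchors were joined went with how many they shared. Among anchors of the same large group 5 to 20 kb apart, 51.0% of the 398 pairs with 1 shared partner had a loop between them (46 to 56.0%), 76.6% of the 124 pairs with 2 (68.2 to 83.7%) and 40 of the 41 pairs with 3 or more. For pairs 50 to 100 kb apart the shares were 14.1% of 703 (11.6 to 16.9%), 26.5% of 147 (19.6 to 34.4%) and 55.6% of 63 (42.5 to 68.1%). At 100 to 500 kb they were 6.57% of 1218 (5.24 to 8.11%), 24.0% of 104 (16.2 to 33.4%) and 60.0% of 35 (42.1 to 76.1%).

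With 1 shared partner, the joined share thus dropped steeply with distance, whereas with 3 or more it was still 60.0% at 100 to 500 kb. Of those 35 distant pairs, 23 came from the 5 dense groups, and in the other groups 9 of 12 pairs were joined. Pairs with no shared partner were joined in 77.1% of 472 cases at 5 to 20 kb and 6.93% of 3735 at 100 to 500 kb. They cannot be set beside the values above, because anchors were placed in a group by their loops. Pairs of anchors share anchors with each other and are not independent. The classes at 100 to 500 kb are also not at like distance. Median distances there were 174 kb with 1 shared partner, 145 kb with 2 and 139 kb with 3 or more. In groups of 3 to 9 anchors the shares at 5 to 20 kb were 47.3%, 66.0% and 96.8%. At 100 to 500 kb the smaller groups did not show the same order, with 8.82%, 32.2% and 25%, the last being 3 of only 12 pairs (5.49 to 57.2%).

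**Figure D5:**
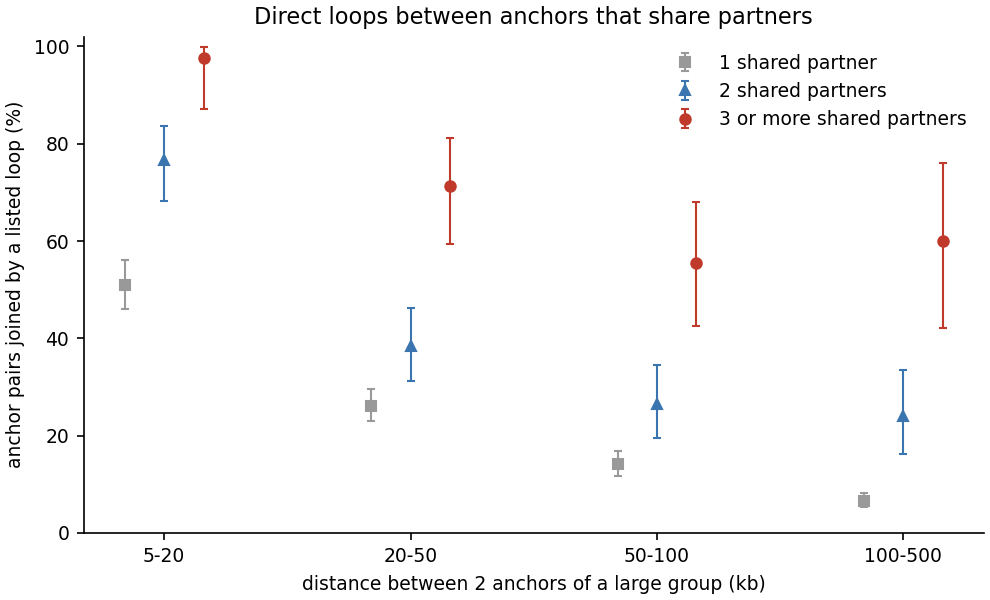
Percentage of anchor pairs of the same large group that are joined by a listed loop (vertical axis) by the distance between the anchors in kb (horizontal axis), for pairs with 1 (squares), 2 (triangles) or 3 or more shared partners (circles), with exact 95% intervals. With 1 shared partner the share goes from 51.0% at 5 to 20 kb to 6.57% at 100 to 500 kb. With 3 or more it is 60.0% at 100 to 500 kb. The median distance in that class is 174 kb with 1 shared partner and 139 kb with 3 or more.

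Pairs of loops that met at a shared anchor were closed more often when both were strong. In large groups, 15.9% of the 1203 such pairs with both scores at 2000 had the closing loop (13.9 to 18.1%), against 27.7% of 2358 with 1 score of 3000 or more (25.9 to 29.6%) and 49.0% of 1430 with both (46.3 to 51.6%). With open ends 100 to 500 kb apart, the shares were 6.77%, 12.3% and 25.3% (20.6 to 30.5%). A closed triangle is counted here with each pair of its loops, and an open set with 1 pair. Thus 1545 of all 4991 pairs, or 31.0%, were closed, against 13% of the sets of anchors above. With the shared anchor between the open ends, each closed triangle is counted with 1 pair. By score, 8.75%, 20.5% and 39.4% of those pairs were closed. Pairs share loops, so the intervals are too narrow. Shares without the dense groups were not computed. When both open ends lay on the same side of the shared anchor and within 5 to 20 kb of each other, 490 of 686 pairs, or 71.4%, were closed. With the shared anchor between open ends in that distance class, 41 of 101, or 40.6%, were closed (30.9 to 50.8%). Distances within the class differ between the 2 arrangements, because the closest anchors of large groups lay 5.007 kb apart. Open ends with an anchor between them therefore cannot lie at the short end of the class, and the 2 shares are not at like distance. From 50 to 100 kb on, the 2 arrangements gave almost the same share, 25.1% and 24.8%. Groups of 3 to 9 anchors showed the same order, with 18.0%, 26.6% and 43.3% closed by score over all distances. In groups of 3 to 9 anchors the shares for the 2 arrangements at 5 to 20 kb were 60.2% and 30.9%.

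Most large groups came apart when loops of the lowest score were left out. These were 1075 of the 2030 loops, and most groups had few loops beyond those needed to connect them. The losses below are therefore no measure of a special role of weak loops. When loops of score 2000 were left out, 563 of the 1648 anchors, or 34.2%, lost all their loops, and the largest connected part that remained had a median of 5 anchors. In 12 groups a part of 10 or more anchors remained. Those parts had 13 anchors in the chromosome 7 group from 148089288 and 12 anchors in 4 other groups. One of these, on chromosome 5 from 64782626 to 65253379, kept all of its 12 anchors. The others were the groups on chromosome 1 from 75341992 to 75598619, on chromosome 15 from 99251015 to 102501664 and on chromosome 17 from 71056403 to 71351696.

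Among the large groups, the number of anchors was almost unrelated to the share of loops with a score of 3000 or more. Across the 125 groups, Spearman's rho between the number of anchors and the percentage of loops with a score of 3000 or more was 0.04. Between that percentage and the percentage of closed sets it was 0.41, and between the number of anchors and span 0.40. These coefficients are descriptions over groups of the same list, all of which share its unknown depth. They cover only groups of 10 or more anchors. Over all group sizes the share of loops with a score of 3000 or more rose, from 35.5% in isolated pairs to 43.7% in groups of 3 to 9 anchors and 47.0% in large groups.

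Large groups were found on each of the 19 autosomes with loops, but in different numbers. Chromosome 11 held 20 groups, chromosome 17 held 14, chromosome 7 held 12 and chromosome 2 held 11. Chromosomes 9, 12 and 13 held 2 each, and chromosome X, with 64 loops of up to 5 Mb, held none. On chromosome 17, 299 of 543 loops, or 55.1% (50.8 to 59.3%), belonged to a large group, the highest share of any chromosome. The share was 36.4% on chromosome 11, 34.1% on chromosome 1, 11.7% on chromosome 5 and 6.51% on chromosome 9. Loops of 1 group share anchors, so these shares turn on a few groups each and the intervals are too narrow. The closed share of sets of 3 anchors in large groups was highest on chromosome 5, at 23.7%, followed by chromosome 12 at 19.9% and chromosome 17 at 18.7%. Each of these values includes at least 1 of the 5 dense groups. It was 12.7% on chromosome 11 and lowest on chromosome 19, at 3.81%.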

How the data were processed

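BRD2 ChIA-PET loops of 2 replicates were used as 1 merged list of high-confidence interactions, per the file header. The score is the authors' deposited value, and positions are on mm9, per the submitters' processing notes, which also name cutadapt and Bowtie. The caller, its thresholds and the depth are not given in these sources. Some loops on 5 chromosomes reach past the final gene listed for GRCm38.p6, so genes and sequences were not placed.

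Loops over 5 Mb were dropped. A left edge and a right edge following it within 5000 bp formed 1 anchor. Group and loop properties were computed with Python 3.11.15, numpy 2.4.6, pandas 2.3.3, scipy 1.17.1, networkx 3.6.1 and matplotlib 3.10.9, and the grouping was tested on simulated data. Loop length is the distance between outer edges. Distances between anchors use midpoints, or the listed edge where only 1 is known. Shares have exact Clopper-Pearson 95% intervals, and differences of shares Newcombe intervals.

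Named were the 10 groups with most anchors, 5 by summed score, 5 by loops per anchor, 3 widest, 3 narrowest, the 10 anchors with most partners, the 10 strongest and the 5 longest loops (ties by chromosome, then position). Other named groups and loops were chosen after their values were seen. The members and lists were chosen with earlier results of these data known. Alternatives changed the minimum score, the length limit, the anchor minimum, the pairing distance and the loops that split groups.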

Additional observations from a re-analysis of the deposited data

How the results depend on the processing

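The large groups were summarised by 125 groups, 2030 loops, 26.8% of loops, a median length of 33.8 kb, 13% of sets of 3 anchors closed, 42.9% indispensable loops and 47% of loops with a score of 3000 or more. Under the alternatives 74 values were recomputed. Of these, 34 stayed within the error of the value given or, for counts, within 1.5 times of it, 39 moved further and 1 changed sign. Every alternative removes loops, adds loops or redraws anchors, so group membership moves by construction. With a minimum score of 3000 there were 12 groups with 188 loops, 5.78% of loops, a median length of 31.1 kb, 17.9% closed sets and 31.4% indispensable loops. With 4000 there were 3 groups with 41 loops, 2.43% of loops, 31.2 kb and 29.3% indispensable loops. Loops of up to 1 Mb moved nothing, and those of up to 500 kb moved only the share of loops, to 25.1%. With no length limit, 30.5% of loops lay in large groups, 11.8% of sets were closed and 47.3% of loops were indispensable. From 8 anchors on there were 202 groups with 36.5% of loops, and from 15 anchors on 35 groups with 790 loops, 10.4% of loops and 11.9% closed sets. With edges closer than 10000 bp joined, 65 groups remained with 946 loops, 17.1% of loops, a median of 48.0465 kb, 11.3% closed sets, 47.7% indispensable loops and 40.9% with a score of 3000 or more. With indispensable loops left out there were 14 groups with 316 loops, 13.2% of loops, 37.5 kb, 25.1% closed sets and 57.9% with a score of 3000 or more. Without the 5 groups with the most closed triangles, chosen after seeing the data, 24.7% of loops, 10.8% closed sets and 46.0182% indispensable loops were found. The share with a score of 3000 or more was 5.56 percentage points higher in large than in all smaller groups. By length, the difference was 9.76 points (3.44 to 15.8) at 5 to 10 kb, 10.7 (5.84 to 15.6) at 20 to 50 kb and 6.96 (1.26 to 12.8) at 50 to 100 kb. At 10 to 20 kb it was 5.50 (-0.10 to 11.0) and at 100 to 500 kb 4.89 (-0.50 to 10.5), with intervals that include 0. It reversed to -3.43 (-14.9 to 15.0 points) at 500 to 5000 kb, over 24 loops of large groups. The cause was not tested. Leaving out each replicate was not run, because the deposited list pools both. No paired analysis was possible because the list carries no values per replicate. The unknown depth limits any statement on loops that are not listed.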
